A study of Mus musculus with 23 samples.

Results

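The genes described here are Kdm2b, the gene targeted in these cells, and 6 other mouse genes whose proteins carry the same kind of CpG-binding zinc finger, the ZF-CxxC domain: Kdm2a, Fbxl19, Cxxc1, Cxxc4, Cxxc5 and Mbd1. They were picked by name in the deposited expression tables, where 7 of 23369 gene names belong to them. Each had a single row with a successful quantification in every sample. Expression was measured by RNA-seq of polyA+ RNA in mouse embryonic stem cells (ESCs), with 3 samples labelled untreated and 3 labelled tamoxifen. All 6 samples carry Kdm2b fl/fl, in which loxP sites flank an exon of both alleles, and the methods describe a stably expressed, tamoxifen-inducible Cre recombinase in these lines, from 1 allele of the Rosa26 locus (Gt(Rosa26)Sor-ERT2Cre+/-), so that the untreated cells differ from the treated ones in the drug and in what the drug brings about. Treatment was with 4-hydroxytamoxifen for 72 hr, at 800 nM by the sample labels and at 800 µM by the text of the series. The labels name the line MS12, and by the methods MS12 cells served to make the targeted allele while the Cre lines came from later matings of mice. The cells were grown on inactivated embryonic fibroblasts and kept overnight without this feeder layer before the experiment, and their passage is given as p10-p20.

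Sample labels decided the group of each sample. Table names of the 6 RNA-seq samples say the opposite, and by them each fold change below would keep its size and change its sign. The methods call the 3 replicates of a group biological triplicates.

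The ZF-CxxC domain is a short, cysteine-rich fold that coordinates zinc and, in most of these proteins, recognises CpG dinucleotides that carry no methyl group. Such sites are concentrated in CpG islands, the CpG-rich stretches at the promoters of most housekeeping and many developmental genes, so the domain brings very different activities to the same kind of DNA. KDM2B brings a variant Polycomb repressive complex 1 (PRC1) built around PCGF1, KDM2A is a histone H3 lysine 36 demethylase, CXXC1 (CFP1) is a subunit of the SET1 histone H3 lysine 4 methyltransferases, and FBXL19 is an F-box protein. CXXC4 and CXXC5 are small proteins linked to Dishevelled and TET2, and MBD1 binds methylated DNA through a separate domain.

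The coding sequences of the domain show what the floxed exon removes and how close the relatives of KDM2B are. They were read 5′ to 3′ on the coding strand from the mm9 (NCBIM37) assembly with the GENCODE annotation, from the first to the last cysteine of the domain core, and capitals mark the 8 cysteine codons of each. Kdm2b (chr5:123338545-123338661, minus strand), Kdm2a (chr19:4328959-4329075, minus strand), Fbxl19 (chr7:134891842-134891958, plus strand) and Cxxc4 (chr3:133903542-133903643, plus strand) are shown.
Kdm2b: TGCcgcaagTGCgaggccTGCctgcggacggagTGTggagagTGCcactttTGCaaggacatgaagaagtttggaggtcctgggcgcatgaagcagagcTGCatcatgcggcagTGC
Kdm2a: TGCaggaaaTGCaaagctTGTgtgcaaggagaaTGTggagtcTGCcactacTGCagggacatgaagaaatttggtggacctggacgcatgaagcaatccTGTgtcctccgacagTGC
Fbxl19: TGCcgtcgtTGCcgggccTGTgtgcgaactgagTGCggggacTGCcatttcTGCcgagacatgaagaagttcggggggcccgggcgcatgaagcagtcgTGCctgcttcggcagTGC
Cxxc4: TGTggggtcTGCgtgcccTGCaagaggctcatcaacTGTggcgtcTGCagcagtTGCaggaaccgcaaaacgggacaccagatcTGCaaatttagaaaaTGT

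In Kdm2b the core spans residues 586 to 624 of the 1309-residue protein and lies wholly inside exon 13 of 23 of the transcript with the longest protein. That exon covers 225 bp, or 75 codons without a remainder, and lies between the loxP sites. It makes up 4.28% to 6.37% of the 5 Kdm2b coding transcripts that hold the domain, of 10 annotated. The FPKM of the whole gene therefore cannot resolve the exon, and the Kdm2b value below is no check of the labels or of the deletion.

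By amino acid identity between the domain cores, the closest to KDM2B was FBXL19 (82.1%, 32 of 39 aligned positions), followed by KDM2A (76.9%) and CXXC1 (65.0%). The cores of KDM2A and FBXL19 were 82.1% identical to each other. CXXC4 and CXXC5, whose cores are shorter at 34 residues, were 82.4% identical to each other and 35.0% and 32.5% identical to KDM2B. The TET1 core, of the same length, was 64.7% identical to that of CXXC4. MBD1 held 3 matches to the cysteine pattern, of which the third shared 67.5% of positions with CXXC1 and 52.5% with KDM2B, against 30.0% and 31.7% with KDM2B for the other two.

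**Figure D1:**
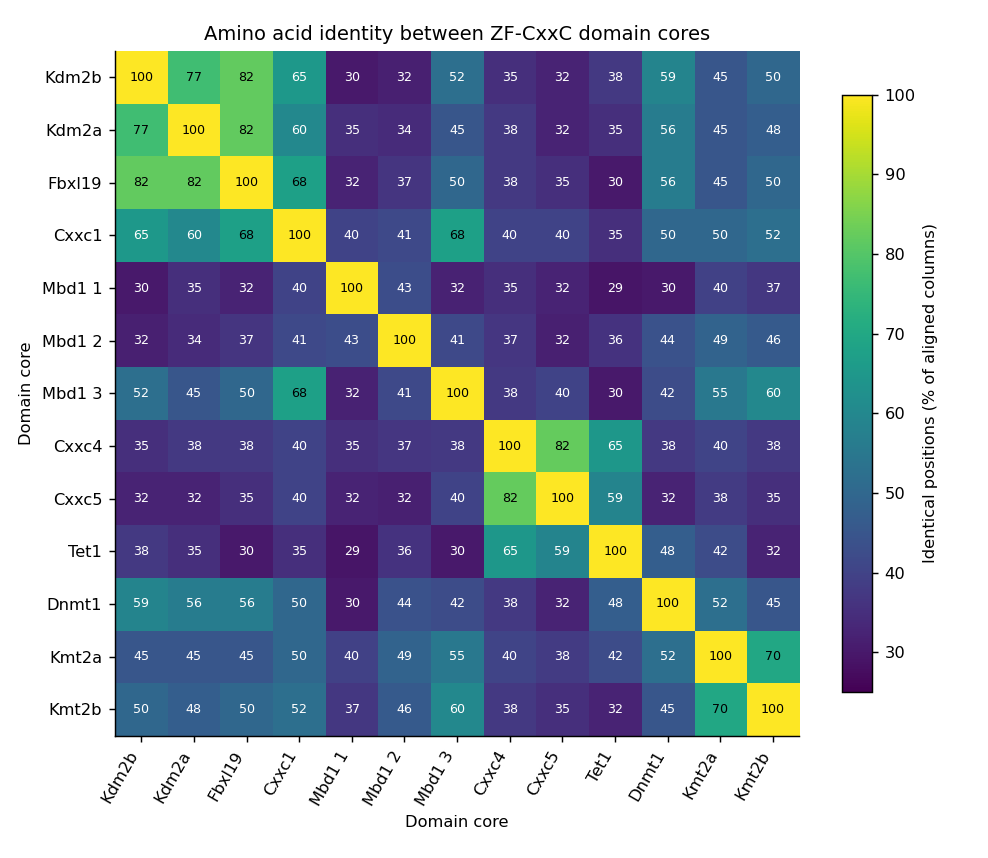
Amino acid identity, in percent of aligned columns, between the ZF-CxxC domain cores of the members (the 3 MBD1 cores are numbered in order along the protein) and of TET1, DNMT1, KMT2A and KMT2B, with colour and printed whole percent giving the same value. KDM2B, KDM2A and FBXL19 form a block at 77 to 82%, and CXXC4 and CXXC5 stand at 82% with each other and at 40% or less with KDM2B, KDM2A, FBXL19, CXXC1 and MBD1.

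FPKM (fragments mapped to a gene, divided by its length and by the fragments of the sample) can be set side by side between genes. All of the members except Cxxc4 were detected well above 1 FPKM in all 6 samples. By the mean over the 6 samples the order was Fbxl19 (27.7 FPKM), Kdm2b (23.8), Cxxc5 (20.3), Cxxc1 (19.5), Kdm2a (12.9), Mbd1 (5.14) and Cxxc4 (0.139). Neighbours from Fbxl19 to Cxxc1 changed places among samples: Fbxl19 was above Kdm2b in 5 of 6, Kdm2b above Cxxc5 in 5 of 6 and Cxxc5 above Cxxc1 in 3 of 6 (adjusted p = 0.15, 0.15 and 0.75, two-sided exact sign-flip permutation tests on log2(FPKM + 0.1), Benjamini-Hochberg over 6 neighbouring pairs). Within each of these 3 neighbouring pairs the levels were not separated beyond their spread. Fbxl19 and Cxxc1, which are not neighbours and were not tested against each other, did not overlap, with Fbxl19 the higher in every sample. Cxxc1 was above Kdm2a, Kdm2a above Mbd1 and Mbd1 above Cxxc4 in 6 of 6 samples each. The exact sign-flip permutation p of these 3 pairs was 0.03125, the smallest that 6 samples allow, and 0.0625 after adjustment. All 6 pairs were chosen as neighbours by the means of these same samples, so the counts and p describe that order and are no separate support for it. The flips treat the 6 samples as independent, although same-numbered samples deviated together, and flips by replicate number could not go below 0.25. In this order the steps were a mean log2 difference of 0.64 ± 0.48, 1.31 ± 0.19 and 4.44 ± 0.27 (SD, n = 6 samples).

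**Figure D2:**
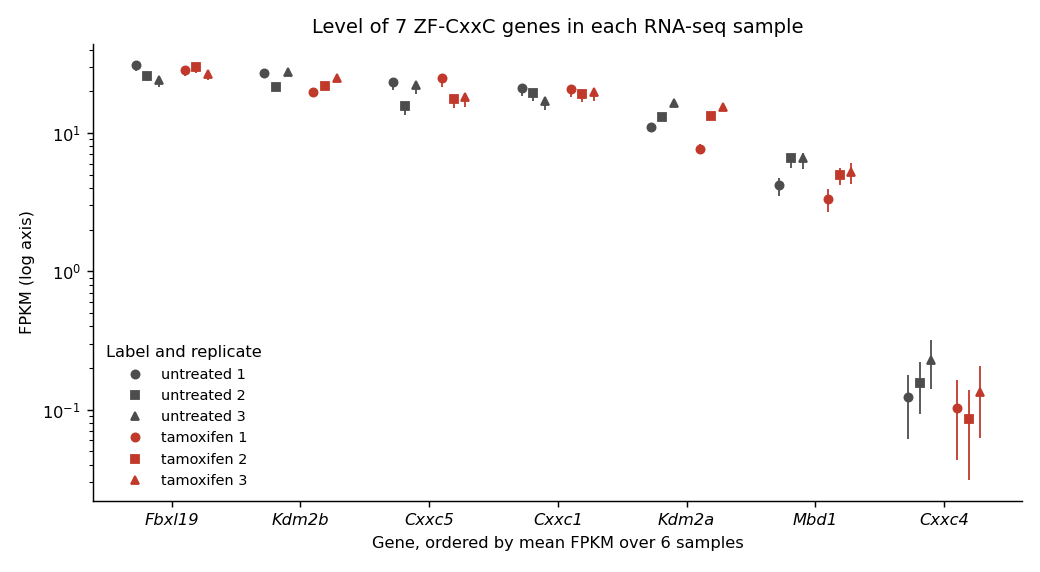
FPKM on a log axis for the 7 genes in the 3 untreated (grey) and 3 tamoxifen (red) samples, with circles, squares and triangles for replicates 1, 2 and 3 and bars for the lower and upper bounds deposited with each value. Mean levels of 5.14 to 27.7 FPKM separate 6 genes from Cxxc4 at 0.139 FPKM, and no gene's groups are apart.

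For each of the 6 ZF-CxxC genes that could be tested, the difference between the group means was smaller than the range of the untreated samples. Kdm2b, Kdm2a and Mbd1 had lower means and Fbxl19 and Cxxc1 slightly higher ones, and Cxxc4 was too low to be tested. In the fit across all genes, 0 of the 6 tested members passed an adjusted p of 0.05 in limma, against 4 of 12997 genes (0.0308%), and 0 of 6 had an unadjusted p under 0.05, against 4.79% of all genes tested. Same-numbered samples deviated together across genes, so a second fit, with a block for replicate number, is given beside the first. With this replicate block 0 of 6 passed, against 1350 of 12997 genes (10.4%). In the blocked fit 1 of 6, Mbd1, had an unadjusted p under 0.05, against 29.8% of all genes tested. The groups failed to overlap for 0 of the 7 members, against 8.49% of the genes tested. The log2 fold changes of the 6 ranged from −0.35 to 0.08 with a median of −0.10, beside −0.02 over all genes tested. Without the block the intervals leave room for changes of either sign in each tested member, and a p that misses the threshold does not show that a level stayed the same.

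The targeted gene is on chromosome 5 of mm9, from 123320685 to 123439101. Kdm2b stood at 27.0, 21.5 and 27.7 FPKM in untreated replicates 1, 2 and 3 and at 19.9, 21.9 and 25.04 FPKM in tamoxifen replicates 1, 2 and 3. The lowest sample was tamoxifen replicate 1 and the highest untreated replicate 3, and the groups overlapped. Within replicate numbers it was lower with tamoxifen by 0.44 on the log2 scale in number 1 and by 0.15 in number 3, and was 0.02 higher in number 2. The log2 fold change, tamoxifen minus untreated, was −0.19 with a standard error of 0.21 and a 95% interval from −0.67 to 0.29 (adjusted p = 0.999, limma on log2(FPKM + 0.1)). With the replicate block the interval was −0.45 to 0.08 and the limma adjusted p 0.31.

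Kdm2a, the paralogue of Kdm2b, is on chromosome 19 from 4316147 to 4397077. Its FPKM was 11.1, 13.2 and 16.5 in untreated replicates 1, 2 and 3 and 7.71, 13.3 and 15.5 in tamoxifen replicates 1, 2 and 3. Replicate 1 was the lowest and replicate 3 the highest in both groups, and the spread within a group was 1.49-fold untreated and 2.01-fold with tamoxifen. Its log2 fold change was −0.20 (standard error 0.30, 95% interval −0.89 to 0.49, limma adjusted p = 0.999), and −0.50 to 0.10 was its interval with the replicate block (adjusted p = 0.34).

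The ratio of both paralogues within a sample does not change when all values of the sample are multiplied by the same factor. Kdm2b over Kdm2a was 2.44, 1.64 and 1.68 in untreated replicates 1, 2 and 3 and 2.58, 1.65 and 1.61 in tamoxifen replicates 1, 2 and 3. The ratio was high in replicate 1 of both groups and nearly the same for the 2 samples of each number. On the log2 scale it was 0.91 ± 0.32 untreated and 0.92 ± 0.38 with tamoxifen (SD, n = 3 each), a difference of 0.01 (p = 0.90, two-sided exact permutation test over samples, which cannot go below 0.10 here).

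Fbxl19, on chromosome 7 from 134890289 to 134912442, encodes a leucine-rich repeat F-box protein, as Kdm2b and Kdm2a do. It was at 30.8, 26.0 and 24.1 FPKM in untreated replicates 1, 2 and 3 and at 28.5, 30.0 and 26.7 FPKM in tamoxifen replicates 1, 2 and 3. The values interleaved, with the highest and the lowest both untreated. For Fbxl19 the log2 fold change was 0.08 (standard error 0.20, 95% interval −0.37 to 0.54, limma adjusted p = 0.999), and the block interval was −0.16 to 0.32.

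Cxxc1, which encodes the CpG-binding subunit of SET1 complexes, lies on chromosome 18 from 74375866 to 74381145 and varied least. It was at 21.0, 19.5 and 17.0 FPKM in untreated replicates 1, 2 and 3 and at 20.6, 19.2 and 19.8 FPKM in tamoxifen replicates 1, 2 and 3. All 3 tamoxifen values lay inside the untreated range, and the coefficient of variation over the 6 samples was 7.17%, against 9.15% to 36.9% for the other members. A log2 fold change of 0.06 was found (standard error 0.20, 95% interval −0.39 to 0.50, limma adjusted p = 0.999), and the block interval was −0.18 to 0.29.

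Mbd1, on chromosome 18 from 74427942 to 74442338, encodes a repressor that reads methylated CpG through its methyl-CpG-binding domain. It was at 4.18, 6.57 and 6.56 FPKM in untreated replicates 1, 2 and 3 and at 3.32, 5.00 and 5.21 FPKM in tamoxifen replicates 1, 2 and 3. The tamoxifen sample was lower within every replicate number, by 0.33, 0.39 and 0.33 on the log2 scale for numbers 1, 2 and 3. The groups still overlapped, because untreated replicate 1 was below tamoxifen replicates 2 and 3. Without the block the log2 fold change was −0.35 (standard error 0.29, 95% interval −1.01 to 0.31, limma adjusted p = 0.999). With the replicate block its interval was −0.62 to −0.08, with an unadjusted limma p of 0.018 and an adjusted p of 0.099. An unadjusted p under 0.05 with the block was reached by 29.8% of all genes tested, and 28.2% of genes were lower with tamoxifen in all 3 numbers, so that neither sets Mbd1 apart.

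Cxxc5, on chromosome 18 from 35989472 to 36021342, encodes a short ZF-CxxC protein linked to Wnt signalling. It was at 23.3, 15.7 and 22.4 FPKM in untreated replicates 1, 2 and 3 and at 24.8, 17.5 and 18.1 FPKM in tamoxifen replicates 1, 2 and 3. Replicate 1 was the highest and replicate 2 the lowest in both groups. For Cxxc5 the log2 fold change was −0.02 (standard error 0.25, 95% interval −0.58 to 0.55, adjusted p close to 1 by limma), and the block interval was −0.29 to 0.26. Under a scaling to TPM and in 4 of the 6 fits that each left out 1 sample its sign was positive, so no direction is given for it.

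Cxxc4, the close relative of Cxxc5, lies on chromosome 3 from 133899459 to 133925053 and was low in every sample. It was at 0.123, 0.157 and 0.231 FPKM in untreated replicates 1, 2 and 3 and at 0.103, 0.0854 and 0.135 FPKM in tamoxifen replicates 1, 2 and 3. Cxxc4 did not reach the minimum of 0.5 FPKM in 3 samples and was left out of the fit. The deposited bounds of this gene are whole multiples of the value of a single fragment, from which 18, 22 and 26 fragments were recovered in untreated replicates 1, 2 and 3 and 12, 11 and 13 in tamoxifen replicates 1, 2 and 3. For equal depth this amounts to 24.2 fragments per unit untreated (exact Poisson 95% interval 18.8 to 30.8, from 66 fragments) and 15.5 with tamoxifen (10.8 to 21.4, from 36 fragments), where 1 unit is the depth of untreated replicate 1. The intervals overlap and cover counting error only, and overlap of separate intervals is no test of the difference. Cxxc4 was lower with tamoxifen within all 3 replicate numbers, as were 28.2% of the genes tested, and its difference was not tested. Mir1895, a microRNA locus in the tables, lies inside the Cxxc4 locus, and how reads of both were divided is not given in the sources used here.

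**Figure D3:**
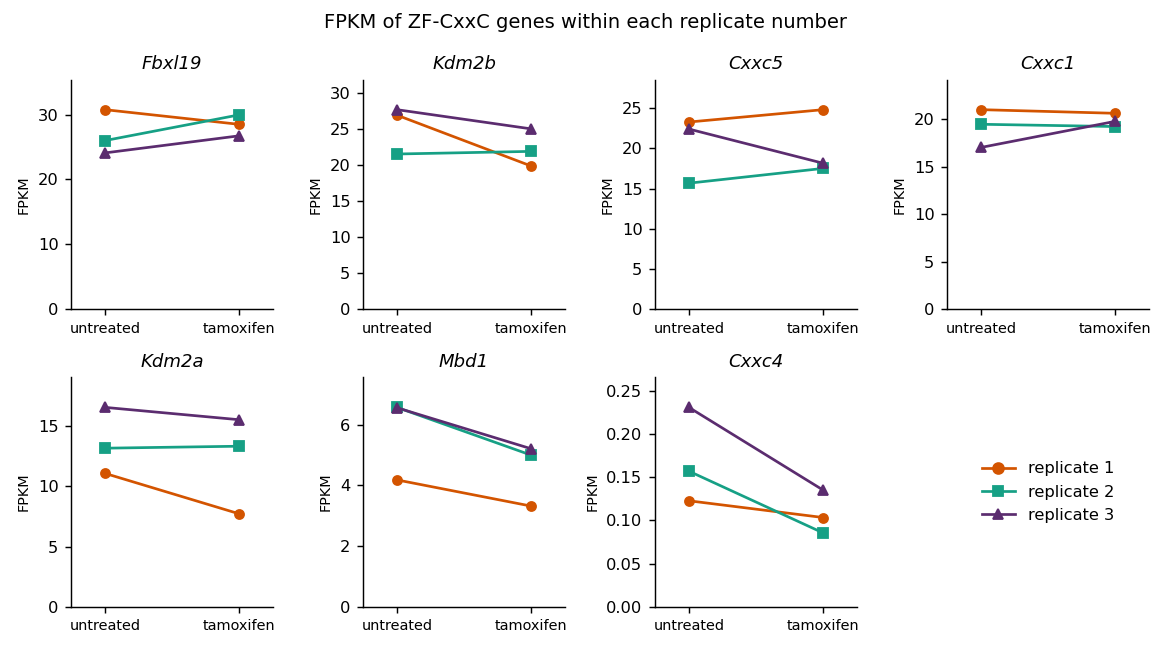
FPKM (linear axes from 0) of each gene in the untreated and the tamoxifen sample of replicates 1 (orange circles), 2 (green squares) and 3 (purple triangles), joined within a replicate number. The lines of Mbd1 and Cxxc4 go down in all 3 numbers, as do 28.2% of the genes tested, and those of the other 5 genes go both ways. Replicate 1 of Kdm2a and Mbd1 lies below replicates 2 and 3 in both groups.

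**Figure D4:**
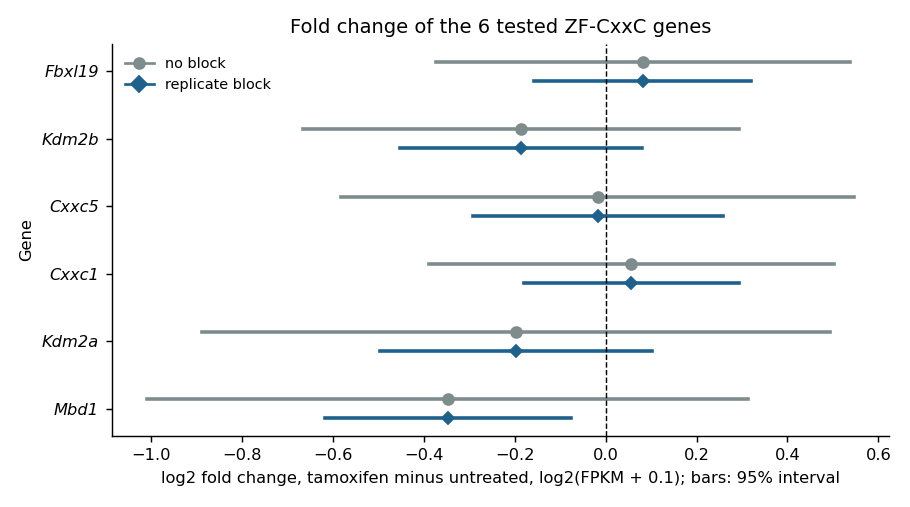
The log2 fold change (tamoxifen minus untreated, on log2(FPKM + 0.1)) of the 6 tested genes with 95% intervals from limma without a block (grey circles) and with a block for replicate number (blue diamonds). The block narrows each interval around the same value, and with it the interval of Mbd1, from −0.62 to −0.08, is the only one of the 6 that leaves out 0.

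Some members differed by replicate number in both groups. Kdm2a and Mbd1 were lowest in replicate 1 of both groups, a pattern shared by 25.4% of the genes tested, and averaged 9.39 and 3.75 FPKM in replicate 1 against 13.2 and 5.78 in replicate 2 and 16.02 and 5.88 in replicate 3. Replicate 1 also had the lowest FPKM summed over all rows in each group, at 549379 untreated and 621052 with tamoxifen, against 648889 or more in the other 4 samples. The replicate patterns given here are in FPKM and were not checked under another scaling. Among the other genes listed as ZF-CxxC genes, Tet1, Tet3, Kmt2a and Kmt2b were also lowest in replicate 1 of both groups, while Dnmt1 was not. Tet3 was listed by name, and the domain was found in 0 of its 2 coding transcripts in the annotation used. All 8 markers of feeder fibroblasts were also lowest in replicate 1 of both groups. They summed to 85.1 to 88.0 FPKM in the 2 samples of replicate 1 and to 184 to 223 FPKM in the other 4, with Lum, a fibroblast proteoglycan, listed at 0 in untreated replicate 1. The part of feeder RNA in the levels of Kdm2a and Mbd1 was not tested. By label the marker sum overlapped, at 88.0 to 223 FPKM untreated and 85.1 to 194 FPKM with tamoxifen. In limma 0 of the 7 feeder markers tested passed with or without the block, beside 10.4% of all genes tested with it. After quantile normalization 1 of them, S100a4, passed with the block (log2 fold change −0.36 before that normalization, limma adjusted p = 0.049 after it and 0.062 before).

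The ESC label was met by its markers: Pou5f1, the core pluripotency factor, was at 369 to 832 FPKM and Nanog at 104 to 205 FPKM over the 6 samples. In polyA+ RNA from a culture, fewer cells of a type and less RNA per cell cannot be told apart. Pou5f1 was at 690, 369 and 537 FPKM in untreated replicates 1, 2 and 3 and at 832, 475 and 552 FPKM in tamoxifen replicates 1, 2 and 3, higher within each number. Of 8 ESC markers, 0 passed in limma with or without the block, beside 10.4% of all genes tested with it. The median log2 fold change of the 8 was 0.20, with Klf4 at −0.0003, Tdgf1 at −0.07 and the rest above 0. Nanog (log2 fold change 0.48, limma adjusted p = 0.079 with the block) was the only one of the 8 whose groups did not overlap. Over all genes tested, 8.49% did not overlap. Of 4 primitive endoderm markers 2 could be tested, and both passed with the block in limma, beside 10.4% of all genes tested. Gata4 had a log2 fold change of −0.85 (limma adjusted p = 0.036, and 0.053 after quantile normalization). Gata6, at −1.43 (limma adjusted p = 0.017), was at 1.06, 0.58 and 1.74 FPKM untreated and 0.31, 0.24 and 0.43 FPKM with tamoxifen. Gata6 met the filter of 0.5 FPKM through its untreated samples alone, so its call is not separate from that filter. Sox17 and Sox7 were too low to be tested, and their groups overlapped. Sox17 was higher with tamoxifen in numbers 1 and 2, and Sox7 in number 3.

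The remaining ZF-CxxC genes bring DNA methylation and H3 lysine 4 methylation enzymes to the same domain. Of Dnmt1, Tet1, Tet3, Kmt2a and Kmt2b, 1 of 5 passed with the block, beside 10.4% of all genes tested, and 0 of 5 without it. Tet1, a 5-methylcytosine oxidase, was at 12.5, 27.2 and 28.4 FPKM in untreated replicates 1, 2 and 3 and at 9.84, 19.9 and 21.4 FPKM in tamoxifen replicates 1, 2 and 3. It was lower within every number, as were 28.2% of the genes tested. Its log2 fold change was −0.40 (limma adjusted p = 0.039 with the block and 0.063 with the block after quantile normalization). Dnmt1, the maintenance methyltransferase, ranged from 46.1 to 57.2 FPKM, the highest of the ZF-CxxC genes, and its log2 fold change was 0.06. The median of the 5 log2 fold changes was −0.27, beside −0.02 over all genes tested.

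Partners of KDM2B were listed as 10 genes under the PCGF1 form of PRC1. The list holds Cbx8, although the paper places CBX proteins in canonical PRC1 and not in variant complexes such as this form. Of these 10 genes, 1 passed with the block, lower with tamoxifen, and 0 without it, with a median log2 fold change of −0.04. With the block 10.4% of all genes tested passed, so the count of 1 in 10 is near that share. The gene that passed was Bcor, the corepressor that holds PCGF1, which fell from 51.3, 59.98 and 64.5 FPKM in untreated replicates 1, 2 and 3 to 5.82, 11.6 and 13.3 FPKM in tamoxifen replicates 1, 2 and 3 (log2 fold change −2.58, limma adjusted p = 0.0015 with the block and 0.0665 without). Bcorl1, its paralogue, and Cbx8, a chromodomain protein of PRC1, also had groups that did not overlap, as did 8.49% of all genes tested. Bcorl1 and Cbx8 had log2 fold changes of −0.57 and −0.63 and limma adjusted p of 0.11 and 0.074 with the block. Pcgf1 itself stood at 8.50, 5.94 and 5.86 FPKM untreated and at 11.7, 5.82 and 5.13 FPKM with tamoxifen in replicates 1, 2 and 3, going up in replicate 1 alone. Rnf2 (RING1B), the catalytic subunit, had a log2 fold change of 0.05. Skp1a, the adaptor that KDM2B, KDM2A and FBXL19 share as F-box proteins, was at 514, 302 and 460 FPKM untreated and at 709, 432 and 506 FPKM with tamoxifen, a log2 fold change of 0.37 (limma adjusted p = 0.074 with the block).

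Of the 8 genes of the SET1 complexes that hold CXXC1, 1 passed with the block, beside 10.4% of all genes tested, and 0 without it. Their median log2 fold change was 0.08. Setd1b, a catalytic subunit, was at 3.26, 6.57 and 7.55 FPKM in untreated replicates 1, 2 and 3 and at 1.68, 4.38 and 5.35 FPKM in tamoxifen replicates 1, 2 and 3. It was lower within each number, as were 28.2% of the genes tested, and lowest in replicate 1 of both groups, as were 25.4%. The log2 fold change of Setd1b was −0.66 (limma adjusted p = 0.026 with the block). Setd1a, the other catalytic subunit, had a log2 fold change of −0.19 (limma adjusted p = 0.33 with the block). Wdr82, which links SET1 enzymes to RNA polymerase II, ranged from 28.1 to 41.1 FPKM with a log2 fold change of 0.14.

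In the other partner lists 0 genes passed in limma with or without the block, beside 10.4% of all genes tested with it. These were 6 genes of the MBD family and MBD1 partners (median log2 fold change −0.04), the 3 core SCF genes (0.14), 4 Dishevelled and Tet2 genes for CXXC4 and CXXC5 (−0.10) and 6 RNF20-RNF40 and CDK8 module genes for FBXL19 (−0.04). Mbd2, the NuRD-linked reader of methylated DNA, was the MBD family gene with the lowest adjusted p, at a log2 fold change of −0.35 (limma adjusted p = 0.094 with the block). Tet2, at 4.18 to 10.6 FPKM, was higher with tamoxifen within each number, with a log2 fold change of 0.25 (limma adjusted p = 0.18 with the block). Dvl3, a Dishevelled protein of Wnt signalling, had a log2 fold change of −0.53 (limma adjusted p = 0.10 with the block).

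**Figure D5:**
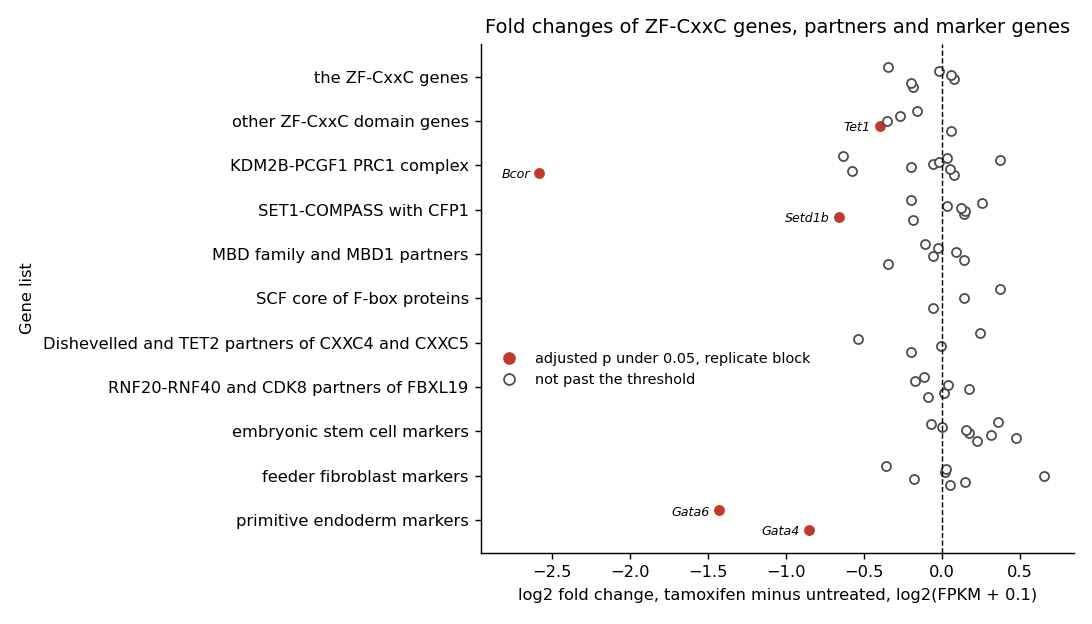
The log2 fold change (tamoxifen minus untreated) of each tested member in the top row and of the tested genes of each partner or marker list below it, filled red where the limma adjusted p with the replicate block is under 0.05. The 6 members lie between −0.35 and 0.08 and 0 of them are filled, and the filled genes are Tet1, Bcor, Setd1b, Gata4 and Gata6, each of them lower with tamoxifen. Of all genes tested 10.4% passed with the block, 563 higher and 787 lower. Gata6 met the filter through its untreated samples alone, and Tet1 and Gata4 did not pass with the block after quantile normalization.

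The genes most like Kdm2b over the 6 samples, by Pearson correlation of log2(FPKM + 0.1), were Tbccd1, Gulp1 and Txlna, each at r = 0.99. With 6 samples, 44 of 12996 genes reached 0.95. For Cxxc5 they were Pet112, Actr1a and Nosip, each at r = 0.99, among 114 genes at or above 0.95. Between members, Kdm2b and Kdm2a had r = 0.62 and Kdm2b and Fbxl19 r = −0.25. These are descriptions over samples that share library scaling and replicate number.

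Windows of 300 bases around annotated starts (RefSeq, GRCm38.p6) were at hand for 3 of the 7 genes, Kdm2b, Fbxl19 and Cxxc4. Kdm2b has start sites of 2 kinds there. The pair inside the gene held 49 and 47 CpG (the letters CG, which read the same on both strands), counts reached by 1.02% and 1.44% of the 32851 windows in the table. The upstream pair held 18 and 28. Fbxl19 held 14 and 16 and Cxxc4 26, against a median of 7 over all windows.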

How the data were processed

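The authors aligned directional polyA+ RNA-seq reads of 51 bp to mm9 with TopHat2 and used cuffdiff (2.1.1, per the labels) on refGene models. The deposited tables hold FPKM per gene row, with bounds and a status, and no counts. Whether counting used strand is not given in the sources used here. The 7 genes and the partner lists were chosen with earlier results of these data known.

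Rows that share a gene name were added up and 6 names with a failed status dropped. Log2(FPKM + 0.1) of the 12997 genes reaching 0.5 FPKM in 3 or more of the 6 samples entered limma (version 3.58.1, R version 4.3.3, eBayes with trend, Benjamini-Hochberg, threshold 0.05), without a block. Such fold changes understate changes of low genes. Samples sharing a replicate number correlated in their deviations from group means (r = 0.54, 0.61 and 0.51), so the blocked fit is given beside it. Simulated data were used to test the fits, with changes larger than those of any tested member, and the outcome is not given here. Depth relative to untreated replicate 1, from single-fragment steps, was 0.655 to 0.955 in the other samples, and 11571 to 11980 rows per sample had at least 1 FPKM. Domains were found by their cysteine spacing in GENCODE translations. Python 3.11.15 with scipy 1.17.1 was used otherwise. Named genes are the members, list genes that passed, did not overlap or serve as examples, and the 3 genes most correlated with Kdm2b and with Cxxc5.

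Alternatives were pseudocounts of 1 and 0.01, TPM with and without loci under 300 bp, quantile normalization, the highest row per name, the replicate block with and without quantile normalization, no filter, at least 1 FPKM in all samples, no trend, leaving out each sample and ratios of group means. Fragments per unit of depth for Cxxc4 were added after seeing the data.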

Additional observations from a re-analysis of the deposited data

How the results depend on the processing

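Of 108 alternative values of the 6 tested members 9 changed sign, and 0 of the 102 that came from a limma fit passed an adjusted p of 0.05. Kdm2b stayed negative, from −0.30 to −0.09, and Mbd1 from −0.56 to −0.15. Signs changed for Kdm2a without tamoxifen replicate 1 (range −0.40 to 0.10 on leaving out 1 sample), for Fbxl19 and Cxxc1 under TPM scaling with short loci (below 300 bp) removed (−0.0063 and −0.031), for Cxxc1 without untreated replicate 3 (range −0.025 to 0.13), and for Cxxc5 with TPM scaling (0.084) and without untreated replicate 1 or 3 or tamoxifen replicate 2 or 3 (range −0.20 to 0.087). Plain TPM scaling moved the median of all genes from −0.02 to 0.08, and to −0.11 without the short loci. The Kdm2b to Kdm2a log2 ratio difference of 0.01 became −0.043 with quantile normalization and ran from −0.21 to 0.19 on leaving out 1 sample, below 0 without untreated replicates 2 and 3 and tamoxifen replicate 1. The exact sign-flip test of that difference within the replicate block kept its value of 0.01 and cannot go below a p of 0.25. On leaving out 1 sample 3 to 4 of the 6 neighbouring pairs kept their order in every remaining sample, 3 with all 6. Cxxc4 changed from −0.37 to −0.08 with a pseudocount of 1, −0.65 in fragments per unit of depth and −0.66 as the ratio of means, and it has no value in the fits that filter low genes.

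Over all genes, 3 were higher and 1 lower with tamoxifen. The replicate block gave 563 and 787, and with quantile normalization 558 and 586. It changed the calls of Bcor, Tet1, Setd1b, Gata4 and Gata6 among the genes named here. Without the filter the counts were 1 and 0, with at least 1 FPKM in all 6 samples 0 and 0, and with a pseudocount of 1 2 and 0. Leaving out 1 sample gave 2 to 5 higher genes, 5 without untreated replicate 1, and 0 to 7 lower genes, 0 without untreated replicates 2 or 3 and 5, 4 and 7 without tamoxifen replicates 1, 2 and 3. The cause of these shifts was not tested.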
